A study of Mus musculus with 16 samples.

Results

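The 10 genes described here belong to the Notch signalling pathway. They are the receptors *Notch1*, *Notch2* and *Notch3*, the ligands *Jag1*, *Jag2* and *Dll1*, the glycosyltransferase *Lfng* and the target genes *Hes1*, *Hey1* and *Hey2*. They were taken by symbol, from probe sets of the array that the platform annotation gives a single gene symbol. Each of the 10 had exactly 1 such probe set, and all 10 passed the signal filter, among 17215 genes tested. The samples were mandibular molar tooth germs of mouse embryos at embryonic day 14.5, dissected by hand and combined in pools of 4 germs. *Rsk2-/Y* males lack *Rsk2*, an X-linked serine/threonine kinase of the ERK pathway, in all their cells, through removal of exon 2. WT males were littermates on the same C57Bl6 background. There were 8 *Rsk2-/Y* pools and 8 WT pools, and the sample names place 4 pools of each genotype in a series called AZN and 4 in a series called ABH. What these series names stand for is not given in the sources used here. Each pool was hybridised to 1 Affymetrix Mouse Gene 1.0 ST array, whose values are log2 signals.

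Notch receptors are transmembrane proteins that meet ligands of the Jagged and Delta families on neighbouring cells. Ligand binding leads to cleavage of the receptor, and its intracellular part enters the nucleus, joins the DNA-binding protein RBPJ and turns on repressor genes of the Hes and Hey families. In mouse teeth, receptors and ligands of the pathway are expressed in dental epithelium and in the mesenchyme below it, and loss of *Jag2* in the mouse disturbs tooth and enamel formation. LFNG adds sugars to Notch receptors and so changes which ligands they respond to.

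The start-site windows of 3 members are shown because *Hey2* is one of the target genes and because *Jag2* and *Lfng* had the lowest unadjusted p-values between genotypes, *Jag2* over all pools and *Lfng* over the ABH pools. Each window runs from 250 bases before the annotated start to 50 bases after it, as given by RefSeq on build GRCm38.p6, and is written 5′ to 3′ on the strand of the gene. Capitals mark matches, on either strand, to the RBPJ site TGGGAA, the E-box CACGTG or the N-box CACNAG, the last 2 being elements bound by HES and HEY proteins.
Jag2: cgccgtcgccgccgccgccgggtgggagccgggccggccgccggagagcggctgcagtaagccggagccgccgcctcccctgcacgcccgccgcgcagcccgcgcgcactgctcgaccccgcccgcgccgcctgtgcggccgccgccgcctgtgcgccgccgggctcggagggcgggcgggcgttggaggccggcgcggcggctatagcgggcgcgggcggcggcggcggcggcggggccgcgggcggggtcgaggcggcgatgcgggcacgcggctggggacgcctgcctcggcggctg
Hey2: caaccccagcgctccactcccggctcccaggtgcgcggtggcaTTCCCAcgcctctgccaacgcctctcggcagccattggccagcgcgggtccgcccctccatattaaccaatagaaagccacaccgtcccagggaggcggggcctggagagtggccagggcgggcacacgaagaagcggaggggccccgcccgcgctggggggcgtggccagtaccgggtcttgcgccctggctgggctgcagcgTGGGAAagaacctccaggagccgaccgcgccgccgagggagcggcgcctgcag
Lfng: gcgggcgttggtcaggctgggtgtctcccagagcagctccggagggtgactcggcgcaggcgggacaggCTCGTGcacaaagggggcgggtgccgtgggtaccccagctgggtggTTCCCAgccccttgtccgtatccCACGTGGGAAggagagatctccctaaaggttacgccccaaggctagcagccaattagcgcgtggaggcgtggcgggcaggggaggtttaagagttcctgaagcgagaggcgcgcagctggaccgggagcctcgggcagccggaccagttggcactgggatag
The *Hey2* window lies at chr10:30842734-30843033 on the minus strand and holds 2 RBPJ matches, which begin at positions -207 and -3 from the start. The *Lfng* window lies at chr5:140607091-140607390 on the plus strand and holds RBPJ matches at -135 and -108, an E-box at -112 and an N-box match at -181. The second RBPJ match of *Lfng* and its E-box overlap in 1 run of capitals. The *Jag2* window lies at chr12:112929446-112929745 on the minus strand and has no match to these letters. Windows were found for 8 of the 10 members (9 windows, since *Dll1* has more than one), and not for *Hes1* or *Hey1*. An RBPJ match was present in 2 members and in 25.6% of all 32851 windows, an E-box in 1 member and in 7.15% of all windows, and an N-box match in 5 members and in 42.5% of all windows.

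Between genotypes, *Jag2* was the member that differed most by p-value, and none of the 10 passed the test. A gene was called when its limma p-value, adjusted by the Benjamini-Hochberg method over all probe sets tested, was under 0.1 and its change at least 1.2-fold. Over all 16 pools no member was called higher or lower in *Rsk2-/Y*, as no gene was (0.0% in each direction). Of the members, 8 had a difference below 0, with a median of -0.073 (log2) over the 10, where the median of all genes was -0.016 and 39.7% of them were above 0. At an unadjusted p under 0.05, 1 member was lower and none was higher, against 2.97% and 0.982% of all genes. The p-values set each difference against the spread between pools, which limma steadies with that of all probe sets tested. In the fit over all 16 pools this spread included any difference between the series, as the fit had no series term. With the series as a block, members other than *Jag2* had limma adjusted p-values of 0.805 to 0.990 between genotypes. The whole germ was measured, so that fewer cells of a type and less RNA per cell cannot be told apart.

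The arrays had medians between 6.74 and 6.94 and correlated with each other at 0.976 to 0.997 over all probe sets, and no pair of files held identical values. Each dental epithelium marker reached at least 7.71 and each dental mesenchyme marker at least 8.25 in its highest pool. In its lowest pool each epithelial marker had at least 7.12. The mesenchymal markers *Alx4* and *Msx2* fell to 6.60 and 6.76 in their lowest pools, near the array medians. The pools also carried signal for markers of endothelium and skeletal muscle. The mean of the 18 epithelial markers was lower in *Rsk2-/Y* pools (9.46 to 9.86) than in WT pools (9.65 to 10.22), with a difference of -0.25 (two-sided exact permutation test over the 16 pools, p = 0.00404, adjusted p = 0.0420 over 20 marker comparisons). All 18 epithelial markers had a genotype difference below 0. Skeletal muscle markers were above 0 for 21 of 22, with mean signals of 7.35 to 9.60 in *Rsk2-/Y* pools and 7.40 to 8.75 in WT pools (exact permutation test, p = 0.112, adjusted p = 0.250). Osteoblast markers were above 0 for 6 of 6, with means of 9.27 to 10.55 in *Rsk2-/Y* pools and 9.11 to 9.83 in WT pools (exact permutation test, p = 0.0691, adjusted p = 0.230). Endothelial markers were below 0 for 14 of 16 and neuronal markers for 9 of 10, with differences of the means of -0.073 and -0.097 that did not pass the test. Genotype fits with the epithelial mean as a covariate are given below. As that mean itself differed between genotypes, these fits cannot tell the effects of genotype and of epithelial mean apart. The part of these lists in the genotype differences of the Notch genes was not tested otherwise.

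**Figure D1:**
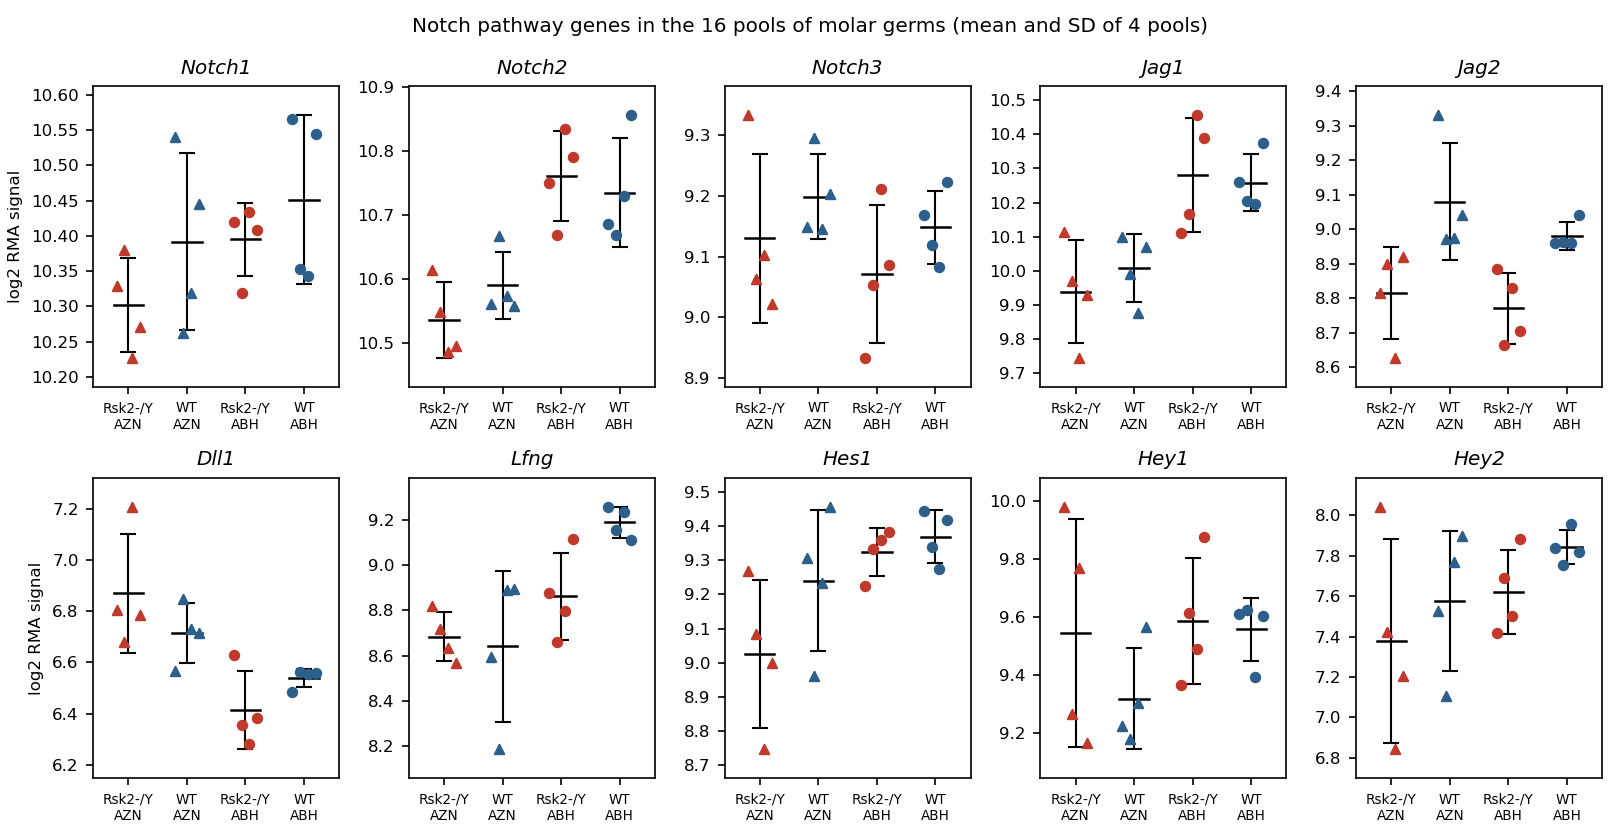
Log2 signal (vertical axis) of the 10 Notch pathway genes in *Rsk2-/Y* (red) and WT (blue) pools of the AZN (triangles) and ABH (circles) series, with the mean and SD of 4 pools in black. Each panel has its own scale. The 8 *Rsk2-/Y* pools lie below the 8 WT pools for *Jag2*. The AZN pools lie below the ABH pools for *Notch2*, where the nearest pools of the series almost touch.

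The receptors differed little between genotypes. *Notch1*, a receptor known from dental epithelium, had 10.33, 10.38, 10.23 and 10.27 in AZN *Rsk2-/Y* pools and 10.54, 10.26, 10.32 and 10.44 in AZN WT pools. In the ABH series it had 10.42, 10.32, 10.43 and 10.41 in *Rsk2-/Y* pools and 10.57, 10.35, 10.34 and 10.54 in WT pools. The groups overlapped in both series, although 7 of the 8 *Rsk2-/Y* pools were below the WT mean, and the difference was -0.073 ± 0.054 (log2, SE, limma adjusted p = 1.0). *Notch2* differed by -0.014 ± 0.061 and *Notch3*, a receptor of pericytes and smooth muscle cells around vessels, by -0.073 ± 0.054, each with an adjusted p of 1.0. *Notch2* varied little between pools, and its SD within a genotype and series, 0.067, was smaller than that of all but 5.8% of genes.

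Among the ligands, *Jag2* was lower in every *Rsk2-/Y* pool than in any WT pool. Its signals in the AZN series were 8.82, 8.90, 8.63 and 8.92 in *Rsk2-/Y* pools and 9.33, 8.97, 8.97 and 9.04 in WT pools. Those in the ABH series were 8.88, 8.66, 8.83 and 8.71 in *Rsk2-/Y* pools and 8.96, 8.96, 8.96 and 9.04 in WT pools. The highest *Rsk2-/Y* pool, at 8.92, was just under the lowest WT pool, at 8.96. Such a separation was seen in 3 genes of 17215 on the lower side (0.0174%) and in none on the higher side (0.0%). Besides *Jag2* these were *Il17re* and *Ss18l1*, named here after their values were seen. By exact permutation of 8 against 8 pools, full separation in either direction has a chance of 0.000155 for each gene. The share of genes that separated was close to that chance. The separation alone therefore does not set *Jag2* apart from chance over the array. *Jag2* averaged 8.79 ± 0.11 in *Rsk2-/Y* pools and 9.03 ± 0.13 in WT pools (SD, 8 pools each). The difference was -0.24 ± 0.062 (log2, SE), with an unadjusted limma p of 0.00117, which was rank 17 of all genes, and an adjusted p of 0.770. It was not called, and its size stayed under 1.2-fold. With the series as a block the adjusted p was 0.286.

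The other ligands did not separate the genotypes. *Jag1*, the other Jagged-type ligand, averaged 10.11 ± 0.24 in *Rsk2-/Y* pools and 10.13 ± 0.16 in WT pools. *Dll1*, the Delta-type ligand of the list, ran over 6.28, 6.66 and 7.21 (lowest, median and highest) in *Rsk2-/Y* pools and over 6.49, 6.56 and 6.85 in WT pools. The *Rsk2-/Y* pools thus held both the lowest and the highest signal of *Dll1*. The differences were -0.024 ± 0.094 for *Jag1* and 0.014 ± 0.11 for *Dll1* (adjusted p = 1.0 for each).

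*Lfng* had 8.57, 8.76 and 9.11 (lowest, median and highest) in *Rsk2-/Y* pools and 8.19, 9.003 and 9.26 in WT pools. The lowest signal of all was that of a WT pool of the AZN series, AZN_MolairesWT2. The genotype difference was -0.14 ± 0.13 over all pools (adjusted p = 1.0), with 7 of 8 *Rsk2-/Y* pools below the WT mean.

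Of the target genes, *Hes1*, a repressor that keeps progenitor cells from differentiating, had 8.75, 9.25 and 9.38 (lowest, median and highest) in *Rsk2-/Y* pools and 8.96, 9.32 and 9.46 in WT pools. *Hey2*, known from arteries and the heart, had 6.84, 7.46 and 8.04 in *Rsk2-/Y* pools and 7.11, 7.79 and 7.95 in WT pools. *Hey1*, a close relative of *Hey2*, had 9.17, 9.55 and 9.98 in *Rsk2-/Y* pools and 9.18, 9.48 and 9.62 in WT pools. In each of these genes the highest or lowest signal, or both, belonged to an AZN *Rsk2-/Y* pool, and the genotypes overlapped. The differences were -0.13 ± 0.090 for *Hes1*, -0.21 ± 0.15 for *Hey2* and 0.13 ± 0.11 for *Hey1* (adjusted p = 1.0 for each). *Hey1* and *Hey2* varied more between pools of the same genotype and series than most genes, with SDs of 0.247 and 0.326, against a median of 0.118 over all genes.

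The genotype difference was then fitted within each series. In the AZN pools *Jag2* differed by -0.26 ± 0.10 (unadjusted p = 0.0241, adjusted p = 1.0). In the ABH pools *Jag2* differed by -0.21 ± 0.061 (unadjusted p = 0.00634, adjusted p = 0.222). *Jag2* thus had the same direction and a like size in both series, and the difference between the series was -0.055 ± 0.12 (interaction, adjusted p = 0.947). No member was called in either series, where 0.0% of genes in each direction were called in AZN pools, and 0.00581% higher and 0.0174% lower in ABH pools. At an unadjusted p under 0.05, 1 member was lower in AZN pools, where 1.39% of genes were lower and 1.39% higher. In ABH pools 3 members were lower at that level, where 8.78% of genes were lower and 3.43% higher.

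The estimates of *Lfng* and *Dll1* had opposite signs in the 2 series, and the difference did not pass a test. *Lfng* had 8.82, 8.72, 8.63 and 8.57 in AZN *Rsk2-/Y* pools and 8.59, 8.19, 8.89 and 8.90 in AZN WT pools, a difference of 0.043 ± 0.15. Its sign turned without AZN_MolairesWT2 (-0.11) or AZN_MolairesMutant (-0.0014). In ABH it had 8.88, 8.66, 8.80 and 9.11 in *Rsk2-/Y* pools and 9.26, 9.16, 9.23 and 9.11 in WT pools, a difference of -0.33 ± 0.090 (unadjusted p = 0.00450, adjusted p = 0.207). Of the ABH *Rsk2-/Y* pools only ABH_26A reached the range of WT. *Dll1* differed by 0.16 ± 0.11 in AZN pools and by -0.13 ± 0.074 in ABH pools. The test of the difference between series gave 0.37 ± 0.18 for *Lfng* (unadjusted p = 0.0599, adjusted p = 0.792) and 0.28 ± 0.14 for *Dll1* (unadjusted p = 0.0643, adjusted p = 0.793). No gene was called in that test (0.0% in each direction). *Hey2* had a difference below 0 in both series, -0.20 ± 0.24 in AZN and -0.22 ± 0.097 in ABH, and so had *Hes1*, -0.22 ± 0.13 in AZN and -0.045 ± 0.059 in ABH. Without single pools the AZN estimates ran over -0.42 to -0.020 for *Hey2*, with these bounds reached without AZN_MolairesMutant and without AZN_MolairesMutant3, and over -0.31 to -0.12 for *Hes1*, reached without AZN_MolairesWT2 and without AZN_MolairesMutant3.

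**Figure D2:**
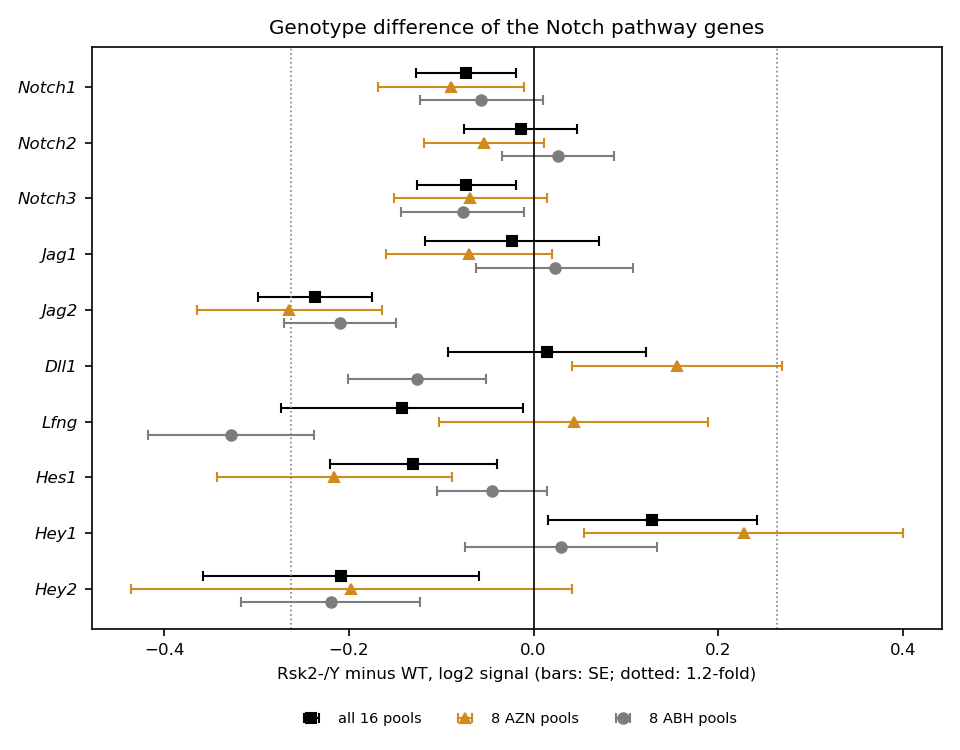
Genotype difference (*Rsk2-/Y* minus WT, log2 signal, horizontal axis) of each gene over all 16 pools (black squares), the AZN pools (triangles) and the ABH pools (grey circles), with SE bars and dotted lines at 1.2-fold. *Jag2* lies at -0.24, -0.26 and -0.21, and *Lfng* at 0.043 in AZN pools and -0.33 in ABH pools.

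The series differed more than the genotypes, and 3 members were called between AZN and ABH. With genotype as a block, 5.80% of genes were called higher and 10.3% lower in AZN pools, so that 1 member called higher and 2 called lower stand against a series difference that reached across the array. *Jag1* had 10.11, 9.97, 9.74 and 9.93 in AZN *Rsk2-/Y* pools and 10.10, 9.99, 9.88 and 10.07 in AZN WT pools. In ABH it had 10.11, 10.17, 10.46 and 10.39 in *Rsk2-/Y* pools and 10.26, 10.20, 10.19 and 10.38 in WT pools. All 8 AZN pools were below the ABH mean of *Jag1*, and the series overlapped by 1 AZN pool. The difference was -0.30 ± 0.062 (limma adjusted p = 0.00143).

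*Lfng* fell by 0.36 on the log2 scale in AZN pools (SE 0.099, adjusted p = 0.00860), which ran over 8.19, 8.68 and 8.90 (lowest, median and highest), while ABH pools ran over 8.66, 9.11 and 9.26. *Dll1* rose by 0.32 (SE 0.077, adjusted p = 0.00394), with 6.57, 6.76 and 7.21 in AZN pools and 6.28, 6.52 and 6.63 in ABH pools. The series overlapped for both genes, and all 8 AZN pools lay on the same side of the ABH mean. *Notch2* was the member whose series did not overlap, with 10.49 to 10.67 in AZN pools and 10.67 to 10.86 in ABH pools. The series all but touched, at 10.6669 in AZN_MolairesWT2 and 10.6687 in ABH_12A. Of all genes, 5.37% separated in this direction and 3.44% in the other. Its difference of -0.19 ± 0.041 (adjusted p = 0.00215) was under 1.2-fold, and so was that of *Hes1*, -0.21 ± 0.075 (adjusted p = 0.0322).

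The remaining members were not past the threshold between series. *Hey2* differed by -0.26 ± 0.14 (adjusted p = 0.158), *Hey1* by -0.14 ± 0.11, *Notch1* by -0.077 ± 0.049, *Jag2* by 0.072 ± 0.058 and *Notch3* by 0.055 ± 0.051. The median of the 10 members was -0.16, beside 0.017 over all genes. *Jag2*, the member with the clearest genotype difference, was thus among those that differed least between series, and *Jag1* and *Dll1*, which differed between series, were close to 0 between genotypes.

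The calls between series depended on which pools were compared. In *Rsk2-/Y* pools alone *Jag1* differed by -0.34 and *Dll1* by 0.46, and *Lfng* was not called, at -0.18 (adjusted p = 0.228). *Hes1*, which was under 1.2-fold over all pools, was called in these pools, at -0.30 (limma adjusted p = 0.067). In WT pools alone *Lfng* differed by -0.55, *Jag1* by -0.25, which is under 1.2-fold, and *Dll1* by 0.17 (adjusted p = 0.109). Leaving out AZN_MolairesMutant3 brought *Jag1* to -0.26 and *Dll1* to 0.25, both just under 1.2-fold. Between the series, the Schwann and glial markers also differed, by 0.28 (exact permutation test, adjusted p = 0.0420 over the same 20 comparisons), and no other list passed. Those of osteoblasts differed by 0.36 and of neurons by 0.19 (adjusted p = 0.103 for each), those of dental mesenchyme by -0.15 (adjusted p = 0.115), and those of skeletal muscle by 0.55 and of erythroid cells by 0.45 (adjusted p = 0.250 for each). All 22 skeletal muscle, 6 osteoblast, 5 Schwann and glial and 7 erythroid markers were above 0. Their part in the series differences of the Notch genes was not tested.

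**Figure D3:**
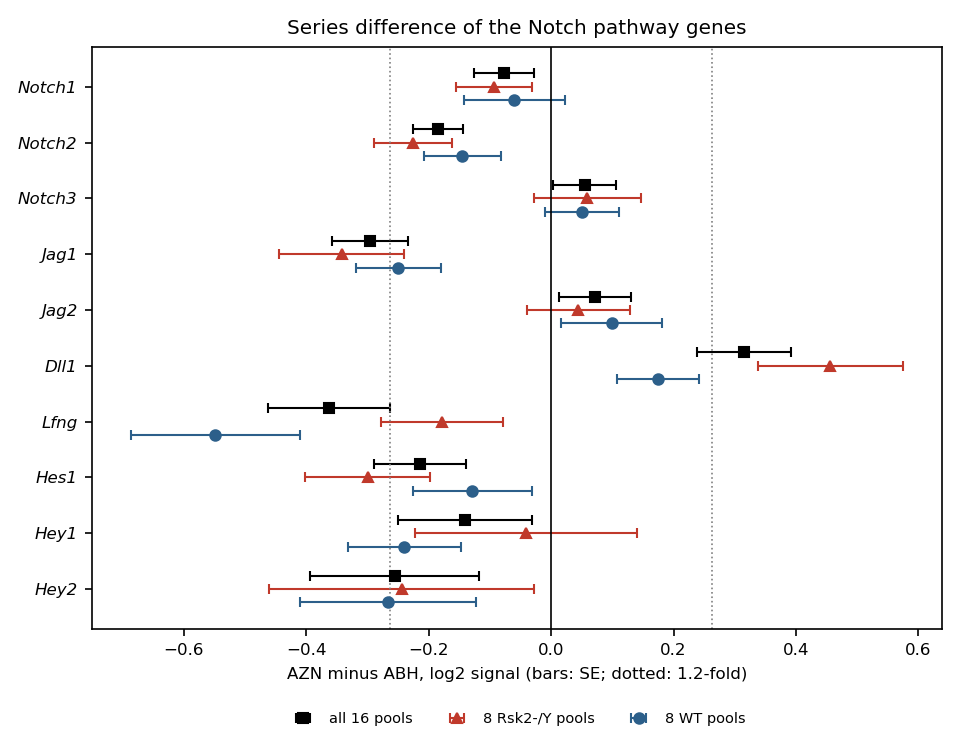
Series difference (AZN minus ABH, log2 signal, horizontal axis) of each gene over all pools (black squares), in *Rsk2-/Y* pools (red triangles) and in WT pools (blue circles), with SE bars and dotted lines at 1.2-fold. *Jag1* and *Lfng* lie below 0 and *Dll1* above 0 in each set of pools, with *Lfng* at -0.18 in *Rsk2-/Y* pools and -0.55 in WT pools.

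Single pools held much of the spread among the members. The pool AZN_MolairesMutant3 had the lowest signal of all 16 pools for 6 of the 10 members, *Hey2*, *Hes1*, *Jag1*, *Jag2*, *Notch1* and *Notch2*, and the highest for *Dll1*. In it *Hey2* lay 0.53 below the mean of the 4 AZN *Rsk2-/Y* pools and *Dll1* 0.34 above it. The same pool had the lowest epithelial marker mean, 9.46, and mesenchymal marker mean, 9.82, and the highest skeletal muscle mean, 9.60, osteoblast mean, 10.55, and Schwann and glial mean, 7.74. Another AZN *Rsk2-/Y* pool, AZN_MolairesMutant, was the highest of those 4 for 7 members, with *Hey2* at 0.66 and *Hey1* at 0.44 above their mean. It had the highest endothelial (9.08), pericyte (8.96) and macrophage (8.34) marker means of all pools. The WT pool AZN_MolairesWT2 was the lowest of its 4 for 6 members, with *Hey2* at -0.47 and *Lfng* at -0.45, and had the lowest epithelial mean of the WT pools, 9.65. The mean absolute deviation of a pool over the 10 members was 0.086 to 0.190 among AZN WT pools and 0.046 to 0.070 among ABH WT pools. Among *Rsk2-/Y* pools the series overlapped, with 0.088 to 0.203 in AZN and 0.077 to 0.122 in ABH.

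**Figure D4:**
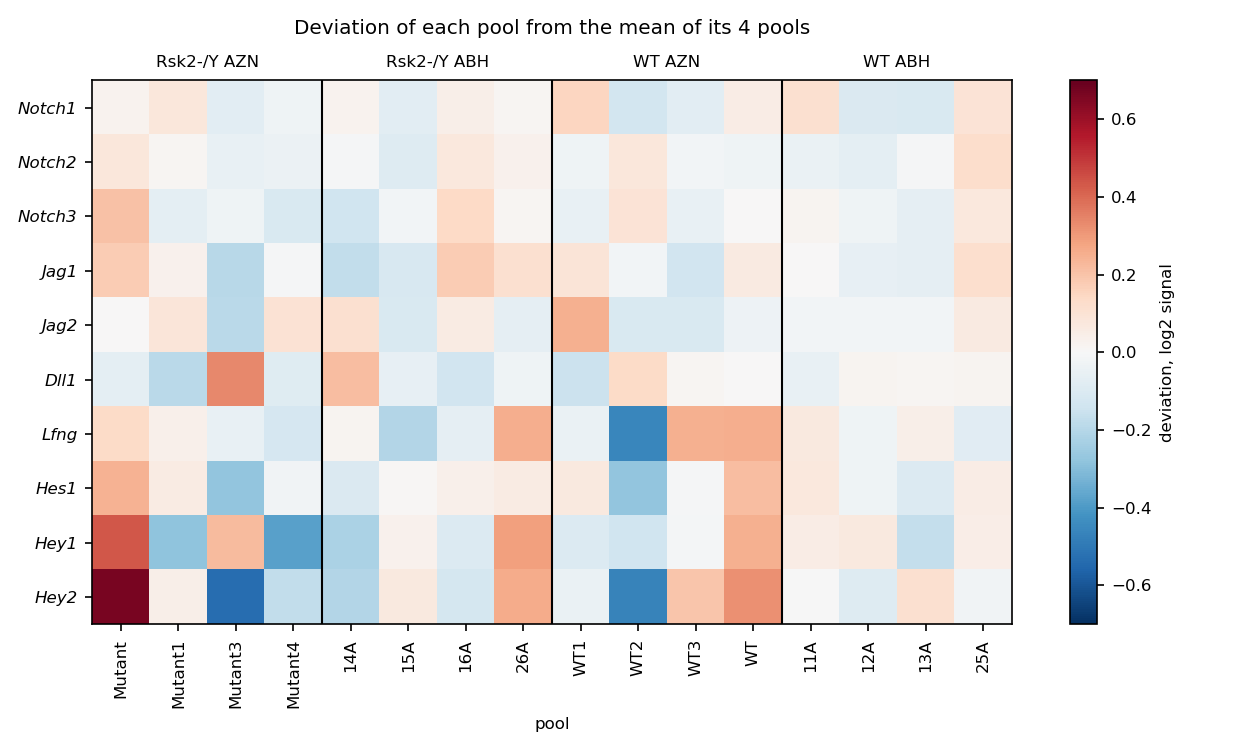
Deviation of each pool (columns) from the mean of the 4 pools of its genotype and series, for each gene (rows), in log2 signal (red above, blue below). The deepest colours are those of *Hey2* in the AZN *Rsk2-/Y* pools Mutant (0.66) and Mutant3 (-0.53), and the WT ABH pools are the palest.

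No member had a called slope on the epithelial marker mean. In a model with genotype and series, the slope of *Jag2* was 0.62 ± 0.16 log2 units per unit of the epithelial marker mean (unadjusted p = 0.00125, adjusted p = 0.130), and 0.767% of genes had a called slope. With the epithelial mean in the genotype model, the difference of *Jag2* was -0.10 (unadjusted p = 0.170), against -0.24 without it. The epithelial mean itself differed between genotypes, so this fit cannot tell genotype and epithelial mean apart. The WT pool AZN_MolairesWT2 had a lower epithelial mean (9.65) than 7 of the 8 *Rsk2-/Y* pools. Its *Jag2* signal of 8.97 was just above the highest of them, 8.92. That is a single pool, and the part of epithelial content in the *Jag2* difference was not tested. *Hes1* had a slope of 0.75 (adjusted p = 0.210), *Hey2* 1.02, *Notch1* 0.43 and *Dll1* -0.70.

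Slopes on other marker means were called for *Hey1*, *Hey2*, *Notch3* and *Dll1*, and all but that of *Dll1* were lost without the single pool AZN_MolairesMutant. *Hey2* had a slope of 1.42 ± 0.37 on the endothelial mean (adjusted p = 0.0493), 1.203 ± 0.31 on the macrophage mean (adjusted p = 0.0214) and 1.94 ± 0.40 on the dental mesenchyme mean (adjusted p = 0.0134). *Notch3* had slopes of 0.49 ± 0.14 on the endothelial mean (adjusted p = 0.0743) and 0.37 ± 0.13 on the macrophage mean (adjusted p = 0.0681). *Hey1* had slopes of 1.03 ± 0.22 on the macrophage mean (adjusted p = 0.0101) and 1.22 ± 0.26 on the mean of pericyte and smooth muscle markers (adjusted p = 0.0953). *Dll1* had a slope of 0.22 ± 0.053 on the skeletal muscle mean (adjusted p = 0.0536). These were the only called slopes among the 10 members.

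Called slopes were common over all genes for some lists. They were made for 11.0% of genes on the mesenchymal, 7.16% on the endothelial, 18.0% on the macrophage, 3.28% on the skeletal muscle and 0.285% on the pericyte mean. On the other means no member was called, with 0.726% of genes called for osteoblasts, 0.0% for neurons, 0.00581% for Schwann and glial cells and 0.633% for erythroid cells. Without ABH_14A, neither slope on the endothelial mean was called, nor that of *Notch3* on the macrophage mean. The slope of *Notch3* on the endothelial mean was lost without any of 5 pools, and that of *Hey1* on the pericyte mean without any of 10 pools. The slope of *Dll1* was not called without AZN_MolairesMutant3 (0.15, adjusted p = 0.207) or without ABH_16A (0.21, adjusted p = 0.127).

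**Figure D5:**
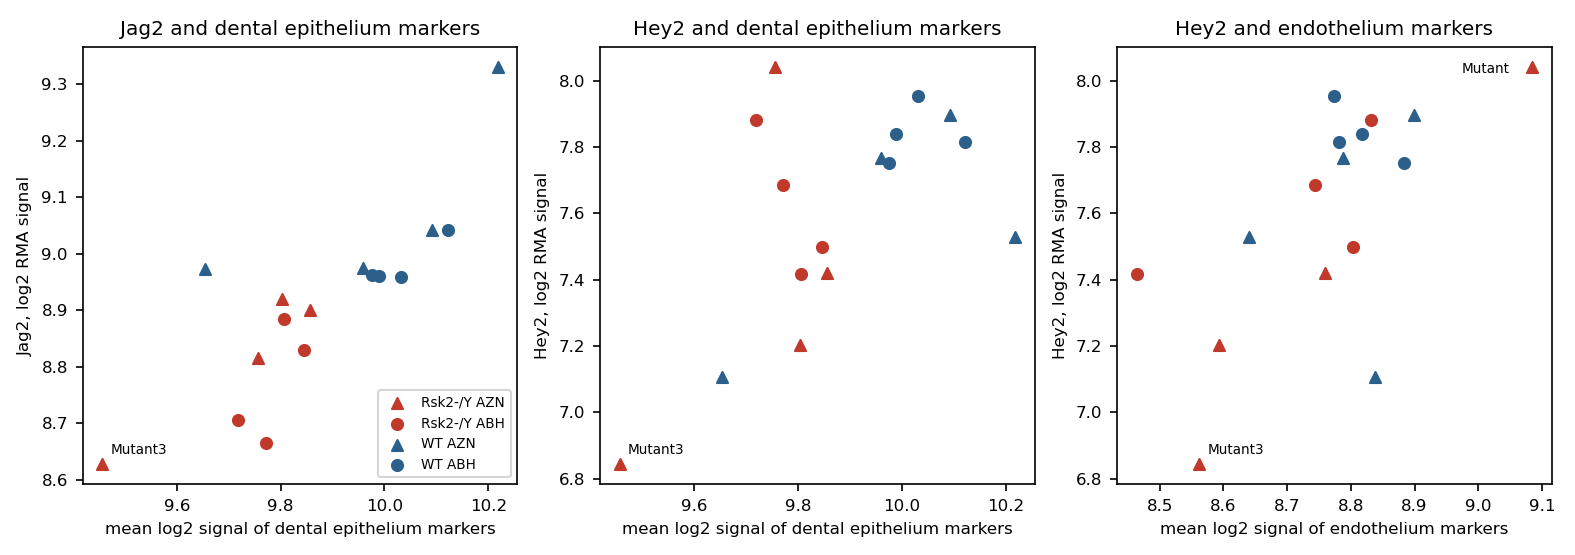
Log2 signal of *Jag2* and *Hey2* (vertical axes) against the mean log2 signal of dental epithelium or endothelium markers (horizontal axes) in the 16 pools, with *Rsk2-/Y* in red, WT in blue, AZN as triangles and ABH as circles. The pool Mutant3 has the lowest signal of both genes and the lowest epithelial mean (9.46), and the pool Mutant the highest *Hey2* and the highest endothelial mean (9.08).

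Beyond the 10 members, 55 other genes of the pathway were tested, in lists of further receptors and ligands, receptor processing, nuclear factors, trafficking and turnover, and target genes. Between genotypes none of the 55 was called, 18 were above 0 and the median was -0.029. Among them is *Aak1*, which the study lists as up-regulated in *Rsk2-/Y* at the same limits of adjusted p and fold change. Here *Aak1* differed by 0.042 ± 0.075 (log2, SE) over all pools, where no gene of the array was called. *Aak1* had 2 single-symbol probe sets, and only that with the highest mean is given. Why this result differs from that of the study was not tested. The largest difference of each list was that of *Dner*, a neuronal ligand (0.12 ± 0.14), *Psen2*, a catalytic subunit of the gamma-secretase that cleaves Notch (0.095 ± 0.068), *Tle3*, a co-repressor of HES proteins (-0.10 ± 0.051), *Dtx3l*, a Deltex-type ubiquitin ligase (-0.17 ± 0.11), and *Nrarp* (-0.23 ± 0.094). *Nrarp*, a target gene whose product restrains the Notch complex, had 7.52, 7.71 and 8.07 (lowest, median and highest) in *Rsk2-/Y* pools and 7.58, 8.01 and 8.27 in WT pools. Of the 8 *Rsk2-/Y* pools, 7 were below the WT mean. It differed by -0.17 ± 0.15 in AZN and by -0.30 ± 0.079 in ABH (adjusted p = 1.0 over all pools). The groups overlapped. *Nrarp* and *Dtx2*, named after its value was seen (-0.10 ± 0.045), were the 2 of the 55 with an unadjusted p under 0.05, both lower, where 2.97% of all genes were lower and 0.982% higher at that level.

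Between series, 5 of these 55 genes were called higher and 5 lower in AZN pools, beside 5.80% of all genes higher and 10.3% lower, with a median of -0.030. The 6 largest were *Bhlhe40*, a hypoxia-responsive repressor (-0.41 ± 0.11, adjusted p = 0.00946), *Hes6*, an inhibitor of HES1 (0.39 ± 0.087, adjusted p = 0.00234), *Dtx4* (0.38 ± 0.067, adjusted p = 0.000380), the acetyltransferase *Ep300* (-0.36 ± 0.050, adjusted p = 4.83e-05), *Dtx1* (0.33 ± 0.050, adjusted p = 9.28e-05) and *Aph1a*, a gamma-secretase subunit (0.33 ± 0.053, adjusted p = 0.000174). *Aph1a* had 2 single-symbol probe sets, and only that with the highest mean is given. *Dlk2* had the largest difference among the further receptors and ligands, 0.18 ± 0.054, and was under 1.2-fold. No gene of the 55 was called between genotypes within AZN pools, within ABH pools or in the test of the difference between them.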

How the data were processed

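Molar germs of *Rsk2-/Y* and WT embryos were measured on 16 arrays, 1 per pool. The authors summarised probe sets by RMA in Affymetrix Expression Console (1.3.1.187) and deposited log2 signals, which were used as given. RMA fits all arrays together and compresses low signals. Signals of different probe sets were not compared. The labels and the methods give different amounts of RNA per array, so none is stated here. Of 35556 probe sets, 21789 had 1 gene symbol in the platform annotation, 1621 several and 12146 none. Single-symbol probe sets with a signal above 5 in at least 1 sample were tested (18834), as the study's methods set it, and genes are counted by the probe set with the highest mean. Differences were fitted with lmFit and eBayes of limma 3.58.1 (R 4.3.3), adjusted by the Benjamini-Hochberg method, and called at an adjusted p under 0.1 and a fold change of 1.2. Marker means were compared by exact two-sided permutation tests computed with NumPy 2.4.6. The scripts were tested on simulated data. Members and lists were chosen with earlier results of these data known. All 10 members were named, and of the other pathway genes the 6 largest called changes per comparison and the largest difference of each list. The methods name Student's t-test, which was run as an alternative with other filters, scalings, weights, blocks and pools left out. Precision is limited by the number of arrays.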

Additional observations from a re-analysis of the deposited data

Results flagged for a closer look

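Of 60 groups of 4 or 8 pools examined over the 10 genes, 6 held a pool that stood far from the rest of its group by Dixon's test. For a single group chance gives about 1 in 20. The groups of 4 lay within the groups of 8 and all genes shared the same arrays. The 60 are therefore not independent, and their number was not tested against chance. All 6 were WT groups. *Jag2* stood high in AZN_MolairesWT1 among all WT pools, at 9.33, and in ABH_25A among the ABH WT pools, at 9.04. *Notch2* stood high in AZN_MolairesWT2 among the AZN WT pools, at 10.67, and *Hes1* stood low in the same pool among all WT pools, at 8.96. *Dll1* stood low in ABH_11A, at 6.49, and *Hey1* in ABH_13A, at 9.39, each among the ABH WT pools.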

How the results depend on the processing

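Of 1086 member values under alternatives, 1000 kept their direction and their side of the threshold, 50 changed direction, 34 lost a call and 2 gained one. Slopes on marker means were counted here only where called in the main fit, so they could lose a call but not gain one. Slopes called only under an alternative are given below and are not in this count. No member was called between genotypes under any alternative. *Jag2* stayed below 0 in all 27 over all pools (-0.25 to -0.080, adjusted p = 0.263 to 1.0). With the series as a block 1 gene of the array was called lower. Where an alternative changed a value below, the cause was not tested.

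With the epithelial marker mean as a covariate, the genotype differences changed direction to 0.046 (*Notch1*), 0.022 (*Notch2*), 0.13 (*Jag1*), -0.22 (*Dll1*), 0.092 (*Hes1*), 0.089 (*Hey2*) and 0.043 (*Lfng*). With the series block as well, chosen after the data were seen, *Jag2* was -0.080, and those that changed direction were 0.036 (*Notch1*), 0.075 (*Jag1*), -0.16 (*Dll1*), 0.060 (*Hes1*) and 0.051 (*Hey2*). Array weights gave 0.0010 (*Notch2*) and -0.039 (*Dll1*), and leaving out ABH_14A and AZN_MolairesMutant3 gave 0.037 (*Jag1*) and -0.078 (*Dll1*). Leaving out single pools gave *Notch2* -0.040 to 0.014, *Jag1* -0.073 to 0.029 and *Dll1* -0.066 to 0.066, and 0 to 9 genes of the array called lower, the 9 without AZN_MolairesWT2.

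Between series, 0 members were called higher in WT pools alone, and 1 lower in WT pools alone or after quantile normalization. Without single pools 0 to 1 members were called higher and 1 to 3 lower, the fewest in each direction without AZN_MolairesMutant3. Within ABH, genes of the array called higher and lower numbered 0 and 0 in a fit of all 4 groups and 63 and 131 with array weights, and 0 to 10 and 0 to 15 without single pools, the most without ABH_14A. There *Jag1* ran over -0.036 to 0.080 and *Hey1* over -0.067 to 0.10. Within AZN, *Lfng* ran over -0.11 to 0.13 without single pools and was -0.065 with the replicate block. That block pairs 4 AZN pools by shared numbers in their names, which nothing in the labels ties to a shared litter or day, and it changed no other direction and no call. In the test of the difference between series, array weights gave -0.046 (*Notch3*) and -0.082 (*Hey2*), and leaving out single pools gave *Notch1* -0.077 to 0.016, *Notch3* -0.060 to 0.055, *Jag2* -0.090 to 0.029 and *Hey2* -0.20 to 0.20.

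Without genotype and series terms, members with called slopes on marker means numbered 2 for epithelium (*Jag2* and *Hes1*), 7 for mesenchyme, 0 for endothelium, 0 for pericytes, 4 for skeletal muscle, 4 for osteoblasts and 1 for Schwann and glial cells. Genes of the array with called slopes then ran up to 5380, for mesenchyme, and were 0 for pericytes. Without single pools the members called numbered 0 to 1 for epithelium, 0 to 4 for mesenchyme, 0 to 3 for endothelium, 0 to 1 for pericytes, 0 to 1 for skeletal muscle, 0 to 1 for osteoblasts and 0 to 3 for macrophages. Each member had a single probe set, so the alternative of using other probe sets gave no value.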

Other observations

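Values of 2 further genes of the pathway are given, named after these were seen. *Psen2*, a catalytic subunit of gamma-secretase, differed between *Rsk2-/Y* and WT by 0.20 ± 0.059 in AZN pools (log2, SE, limma adjusted p = 1.0) and by -0.010 ± 0.066 in ABH pools, and the difference between the series was 0.21 ± 0.082 (limma adjusted p = 0.728). *Dll3*, a ligand-like protein that inhibits Notch in the same cell, differed by 0.090 ± 0.074 in AZN pools and by -0.17 ± 0.053 in ABH pools, and the difference between the series was 0.26 ± 0.085 (limma adjusted p = 0.728). Neither gene was called in any of these tests.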
